A study of Mus musculus with 40 samples.

Results

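Partial hepatectomy (PH) removes part of the liver, after which the hepatocytes of the remnant leave quiescence, copy their DNA and divide. The comparison described here set livers of 12-month-old mice 72 h after PH against livers of 12-month-old mice before PH (0 h), across all 11119 genes and joined gene entries of the deposited tables. Each entry's difference was the mean log2 level at 72 h (4 mice, M549, M550, M551 and M552) minus the mean log2 level at 0 h (8 mice). The groups hold 12 of the 40 samples of the study. The labels list all 4 mice of the 72 h group among the 8 mice at 0 h. The other 4 mice at 0 h are listed again at 72 h with ATRi, an inhibitor of the checkpoint kinase ATR. The labels of these ATRi livers read as a single dose given a day after PH, and they name no unit of dose.

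Polyadenylated RNA of liver, labelled as hepatocytes, was sequenced in every group, and the sources used here give no strain, sex or depth. No genotype is given beyond the letters wt in the labels of the 3-month 0 h mice wt1, wt2 and wt3. The other mice of that group carry numbers alone. Other groups served as context: 12-month untreated mice at 48 h (3 mice), 12-month ATRi mice at 72 h (4 mice), 3-month untreated mice at 72 h (4 mice, of which 2 are also among the 0 h mice of that age) and 3-month mice at 0 h (7 mice). The tables hold 1 mean log2 level for each of these groups, in a unit named sigma that is not defined in the sources used here. Single livers were given for the 12-month ATRi mice at 72 h alone (M545, M546, M547 and M548). Their range is used below as a scale of how far livers of this age and time can differ, and it is not the spread of the groups compared. Because means carry no spread, no test was run, and "higher" or "lower" below describes the size of a difference between 2 means. Alb, the gene of serum albumin, had a level of 16.01 at 72 h and 15.23 at 0 h. The Kupffer cell receptor Clec4f had 7.76 at 72 h and 7.27 at 0 h, so the RNA held transcripts of other liver cells too. In bulk tissue, fewer cells of a type and less RNA per cell cannot be told apart.

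At 72 h, 325 entries exceeded their 0 h level by 1 or more on the log2 scale (2.92% of 11119) and 112 were lower (1.01%). The median difference over all entries was −0.09, and 39.9% lay above 0. Among the 325, 78 belonged to lists of cell division and DNA replication genes, 27 to lists of interferon response and antigen presentation genes, and 64 were genes spanning 100 kb or more of the genome, 1 of which is also in those lists. The other 157 fell into none of these groups. In the single ATRi livers the median range of a gene was 0.52 (median SD 0.23, n = 4), and 215 of the 325 higher and 85 of the 112 lower entries differed by more than the range of their own 4 livers.

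**Figure D1:**
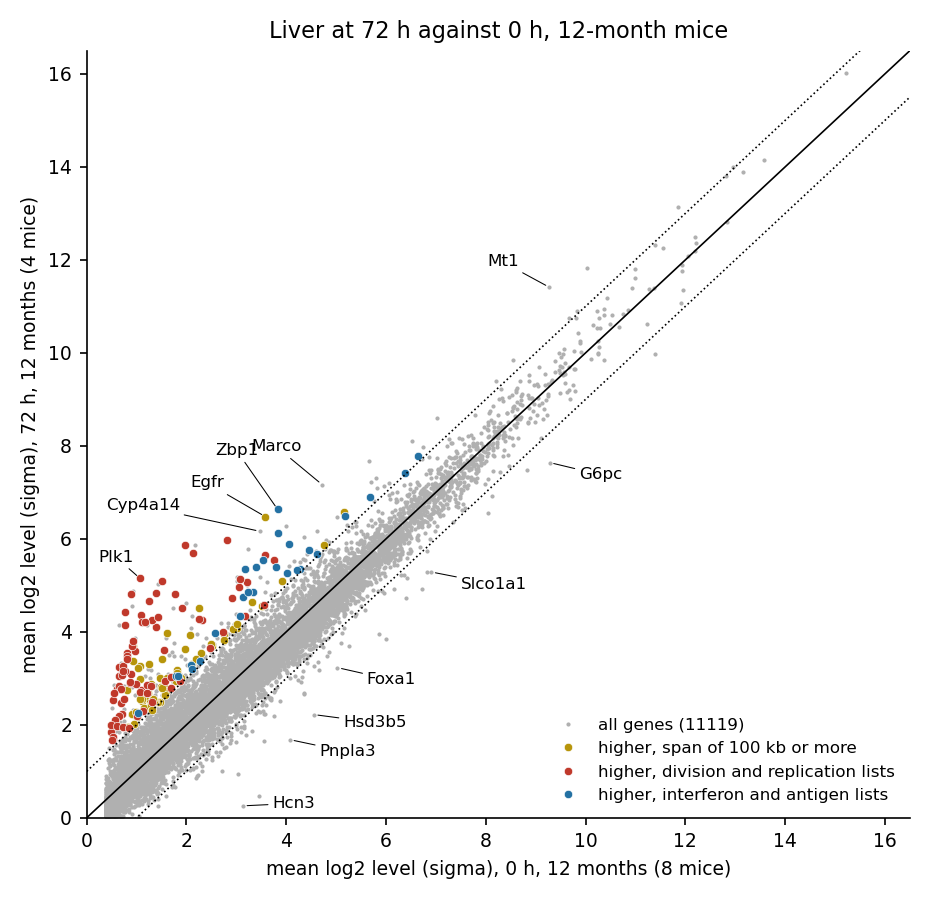
Mean log2 level (sigma) at 72 h (vertical axis, 4 mice) against 0 h (horizontal axis, 8 mice) in 12-month mice, 1 point per entry. The solid line marks equal levels and the dotted lines a difference of 1, and coloured points are higher genes of the 3 groups in the legend. Division genes such as Plk1 lie far above the line at low 0 h levels, while Hcn3, Pnpla3 and Hsd3b5 lie farthest below it among the labelled genes.

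Mitosis is driven by cyclin B with the kinase Cdk1, by Polo and Aurora kinases, and by a machinery of kinetochores, kinesin motors and condensins, which hepatocytes at rest hardly transcribe. Genes of this machinery led the comparison. Of the 20 named genes with the largest differences, 14 were in the division and replication lists, and the smallest difference among the 20 was 3.04. Plk1, the Polo kinase of mitotic entry (chr7:122159439-122169873), had a level of 5.15 at 72 h against 1.07 at 0 h, a difference of 4.09. In the ATRi livers Plk1 was at 4.32, 5.21, 4.85 and 3.14, each above the 0 h mean. Knstrn, a spindle protein, differed by 3.96 (4.88 at 72 h, 0.92 at 0 h). Ckap2, which stabilises spindle microtubules, differed by 3.93 (4.81 at 72 h, 0.88 at 0 h).

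Of 21 measured mitotic cyclins and kinases, 17 were higher by 1 or more and 20 lay above 0, with a median of 2.15. Ccnb2 (cyclin B2) differed by 3.91, Ccnb1 (cyclin B1) by 2.0, Cdk1 by 3.57, the Aurora kinases Aurka and Aurkb by 3.41 and 3.05, and the centrosome kinase Nek2 by 3.18. Genes of the cytokinesis and midbody list had the largest median of all lists, 2.60, with 12 of 16 higher by 1 or more. They included Hmmr, a spindle protein and hyaluronan receptor (3.66), Arhgap11a (3.44), the midzone crosslinker Prc1 (3.38) and the RhoA activator Ect2 (2.62). All 12 measured mitotic kinesins lay above 0 and 8 were higher by 1 or more (median 1.70), led by Kif22 (2.78) and Kif18b (2.54).

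In the chromosome condensation and cohesion list 12 of 21 were higher by 1 or more (median 1.48). Birc5 (survivin, of the chromosomal passenger complex) differed by 3.56, Mki67, the marker of cycling cells, by 3.10 (4.22 at 72 h, 1.11 at 0 h) and Top2a, the topoisomerase that untangles sister chromatids, by 3.04. Kinetochore and centromere genes had a median of 1.19, with 16 of 26 higher by 1 or more, among them Spag5 (2.89), Nuf2 (2.36) and the centromeric histone Cenpa (2.09). The spindle checkpoint list, which also holds ubiquitin ligase subunits used outside mitosis, had a median of 0.31 and 3 of 17 higher by 1 or more, namely Bub1b (2.20), separase Espl1 (2.05) and Mad2l1 (1.90). None of the 6 division lists held a member lower by 1 or more. Outside these lists, the 20 named genes with the largest differences included the helicase Pif1 (3.70), Prr11 (3.65) and Troap (3.50).

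Many promoters of genes expressed in mitosis hold a cell cycle homology region (CHR), bound by the DREAM and MuvB complexes, and CCAAT boxes. Of the 10612 entries that name a single gene, 8234 had a promoter in the RefSeq table for GRCm38.p6, and the 250 bases before each start were searched on both strands for CHR (TTTGAA or TTTAAA), the CCAAT box (CCAAT), E2F (TTCGCGC or TTCCCGC) and the interferon-stimulated response element, ISRE (GAAA, any 2 bases, then GAAA). CHR was in 53.7% of the 54 division genes that were higher by 1 or more, in 43.5% of all 92 measured division genes and in 21.5% of the 8234. CCAAT was in 74.1% of the 54, 65.2% of the 92 and 40.1% of the 8234. E2F letters were in 9.26% of the 54 and 9.85% of the 8234. The 120 bases before the start of 4 of these genes show the letters in place, with CHR matches in capitals. The 4 are those with the largest differences among division genes that hold a match there and no annotated exon. They are Ckap2 (chr8:22185820-22185939, minus strand), Arhgap11a (chr2:113848662-113848781, minus strand), Ckap2l (chr2:129297213-129297332, minus strand) and Mki67 (chr7:135716380-135716499, minus strand), each given 5′ to 3′ on the strand of its gene.
Ckap2: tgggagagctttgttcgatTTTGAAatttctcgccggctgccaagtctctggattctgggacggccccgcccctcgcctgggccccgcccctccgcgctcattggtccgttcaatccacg
Arhgap11a: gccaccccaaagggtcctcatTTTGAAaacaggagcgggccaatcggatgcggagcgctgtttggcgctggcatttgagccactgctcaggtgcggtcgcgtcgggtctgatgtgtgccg
Ckap2l: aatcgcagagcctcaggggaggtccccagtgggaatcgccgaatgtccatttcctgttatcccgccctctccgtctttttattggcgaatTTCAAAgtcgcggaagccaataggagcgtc
Mki67: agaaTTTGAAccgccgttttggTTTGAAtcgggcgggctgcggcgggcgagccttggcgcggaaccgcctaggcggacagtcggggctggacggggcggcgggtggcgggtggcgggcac
A single match began 101 bases before the start in Ckap2, 99 in Arhgap11a and 30 in Ckap2l, and 2 matches began 116 and 98 bases before the start in Mki67. A match describes letters and not a bound site.

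Genes of DNA synthesis were listed in 3 groups. The licensing and helicase list had a median of 0.48, with 5 of 20 higher by 1 or more. These were the helicase subunits Mcm5 (1.94, with 4.26 at 72 h and 2.32 at 0 h), Mcm2 (1.25), Mcm6 (1.18) and Mcm3 (1.18), and Dbf4 (1.36), the activator of the kinase Cdc7. Mcm10 had 3.8 at 72 h and 4.55 at 0 h. Fork polymerases and clamp genes had a median of 0.20 with 3 of 24 higher by 1 or more, the chromatin assembly subunit Chaf1a (1.36), the polymerase subunit Pole (1.16) and Uhrf1 (1.09). In the nucleotide supply list (median 0.11) both subunits of ribonucleotide reductase were higher by 1 or more, Rrm2 by 1.79 and Rrm1 by 1.02, of 17 measured.

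The 48 h and 72 h differences use the same 0 h mean, so they are given only side by side. At 48 h, 363 entries were higher than at 0 h by that size (3.26%) and 206 lower (1.85%), and the medians were 2.79 for mitotic cyclins and kinases, 2.89 for cytokinesis, 1.34 for licensing and 1.05 for fork polymerases. At 72 h set against 48 h, 369 of all entries were higher by 1 or more (3.32%), 210 were lower (1.89%) and 39.9% lay above 0. The 72 h level of each of the 78 higher division and replication genes was below its 48 h level, with a median 72 h minus 48 h difference of −0.64. The gap was small for Plk1 (5.15 at 72 h, 5.30 at 48 h) and Knstrn (4.88 at 72 h, 4.89 at 48 h). It was larger for Cdk1 (5.09 at 72 h, 6.08 at 48 h), Mki67 (4.22 at 72 h, 5.17 at 48 h), Mcm5 (4.26 at 72 h, 5.37 at 48 h) and Rrm2 (5.55 at 72 h, 6.83 at 48 h).

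**Figure D2:**
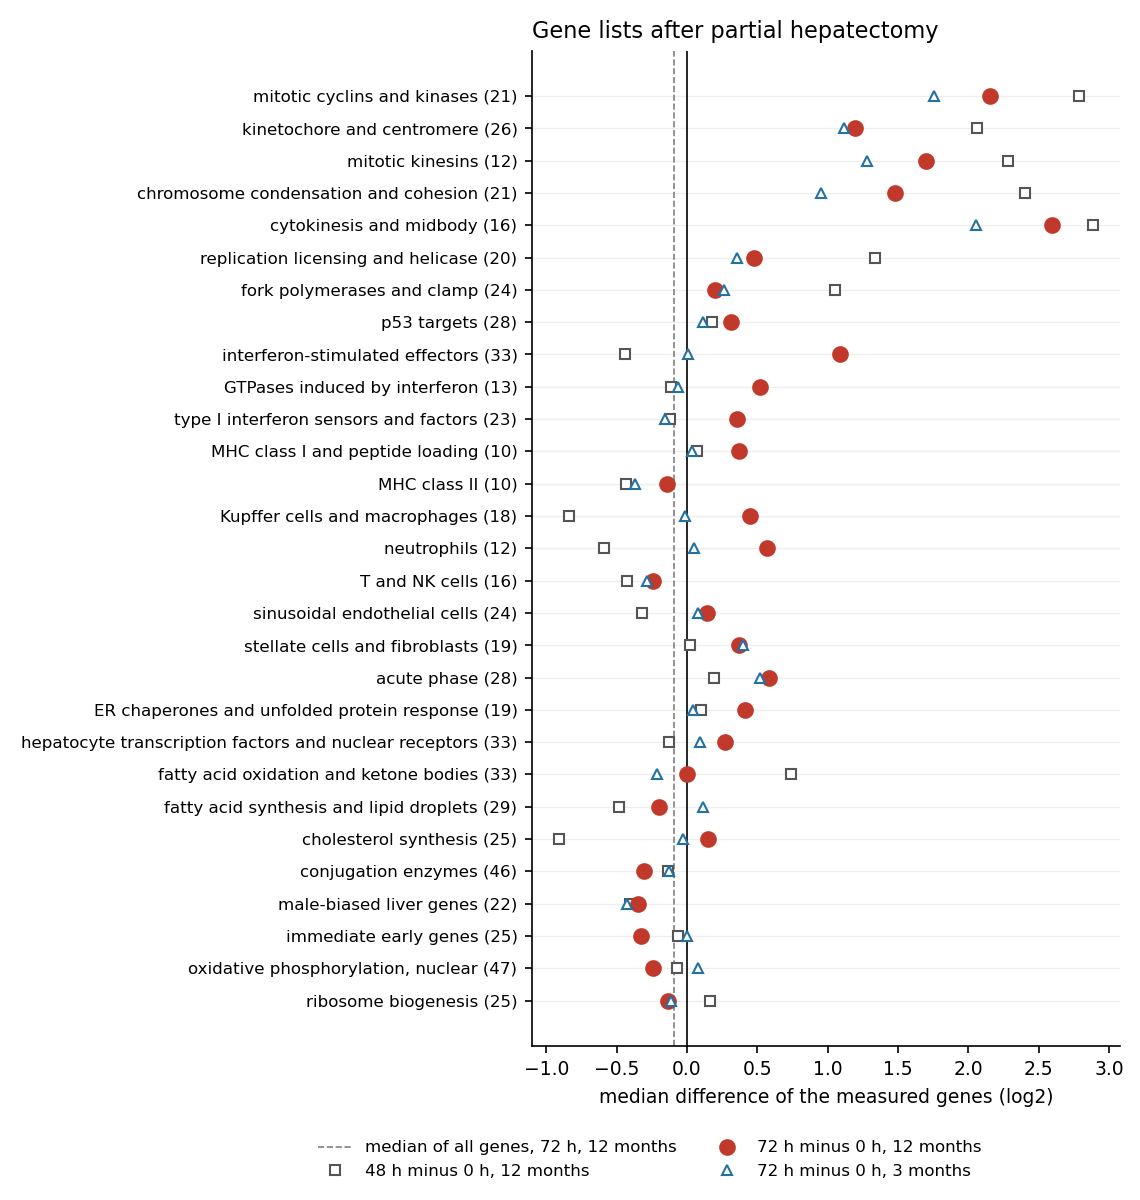
Median log2 difference of the measured genes of 29 lists (number measured in brackets) for 72 h minus 0 h at 12 months (filled circles), 48 h minus 0 h at 12 months (squares) and 72 h minus 0 h at 3 months (triangles). Interferon-stimulated effectors stand at 1.09 at 72 h and −0.44 at 48 h in 12-month mice, and at 0.01 at 72 h in 3-month mice in the plot.

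Among G1/S regulators (median 0.28), 2 of 23 were higher by 1 or more, Foxm1 (2.89), a transcription factor of mitotic genes, and cyclin D1, Ccnd1 (1.22, with 2.59 at 72 h and 1.37 at 0 h). Cyclin E1, Ccne1, differed by 0.35 at 72 h and by 1.28 at 48 h. Genes of the ATR checkpoint and of fork repair had a median of 0.17, and Fancb, of the Fanconi anaemia pathway, differed by 1.11. Atr itself had 2.51 at 72 h and 2.47 at 0 h. Of 28 measured p53 targets 23 lay above 0 and 5 were higher by 1 or more (median 0.31). Gtse1, a mitotic protein that also restrains p53, differed by 3.60. Phlda3, an inhibitor of Akt, differed by 2.56 (5.79 at 72 h, 3.23 at 0 h) and stood at 5.38, 6.54, 6.19 and 5.30 in the ATRi livers. Cdkn1a (p21, the inhibitor of cyclin-dependent kinases) had 7.22 at 72 h and 5.71 at 0 h, and its 48 h level was 8.20.

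Interferons signal through receptors and JAK kinases to genes whose products sense viral RNA and DNA, block translation or restrict virus release, and Kupffer cells, endothelial cells and hepatocytes can all express them. Many of these genes were higher at 72 h. Of 33 measured interferon-stimulated effectors 31 lay above 0 and 18 were higher by 1 or more, with a median of 1.09. Zbp1, a sensor of Z-form nucleic acid, had 6.64 at 72 h against 3.83 at 0 h, a difference of 2.81. The antiviral enzyme Rsad2 (viperin) had 6.12 at 72 h against 3.83 at 0 h, and Ifi44 had 5.35 at 72 h against 3.18 at 0 h. Isg15, a ubiquitin-like modifier, differed by 1.62 and Usp18, the protease that removes it, by 2.01. Ifit3, which acts on foreign RNA, differed by 1.85, the nucleotide kinase Cmpk2 by 1.60, and the oligoadenylate synthetase Oas1a by 1.41.

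Among 23 measured sensors and factors of the type I interferon pathway (median 0.36), 5 were higher by 1 or more. Beside Zbp1 and Usp18 they included the RNA helicase Dhx58 (1.32) and the transcription factor Stat2 (1.22). Of 13 GTPases induced by interferon, which attack vacuoles of intracellular microbes, 11 lay above 0 and 4 were higher by 1 or more (median 0.52), with Gbp3 at 2.02 and Igtp at 1.24. Of 10 MHC class I and peptide loading genes 9 lay above 0, but none was higher by 1 or more (median 0.37, H2-K1 0.03). MHC class II genes had a median of −0.14, which was 0.04 when differences were centred by level, with H2-Eb1 at −0.76. Over all 88 genes of these lists that matched a single annotated gene, 30.7% were higher by 1 or more.

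At 48 h the effectors had a median of −0.44 and none of the 88 genes stood 1 or more above its 0 h level. Rsad2 stood at 3.03 at 48 h, Ifi44 at 2.16, Isg15 at 2.25 and Ifit3 at 2.65, each below its 0 h level. The 72 h minus 48 h difference was 3.25 for Ifit3, 3.19 for Ifi44 and 3.09 for Rsad2.

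Interferon-stimulated effectors differed between single livers. The list, set against the 0 h mean, had a median between 0.09 and 1.28 in the 4 ATRi livers, and M547 was the highest for Rsad2 (6.79, against 4.30, 4.63 and 3.35 in M545, M546 and M548). Isg15 was at 2.49, 3.68, 5.32 and 2.92 in M545 to M548, so that 2 of these livers were below the 0 h mean of 3.13. How the 4 untreated livers at 72 h were spread about their mean is unknown.

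ISRE letters were in 68.4% of the 19 interferon genes that were higher by 1 or more and had a promoter in the table, in 40.4% of all 52 measured interferon genes and in 3.36% of the 8234. Chosen by the same rule as above, 4 promoter stretches show the element, with ISRE matches in capitals and each 5′ to 3′ on the strand of its gene. They are Rsad2 (chr12:26456453-26456572, minus strand), Isg15 (chr4:156200819-156200938, minus strand), Oas1a (chr5:120907526-120907645, minus strand) and Igtp (chr11:58199436-58199555, plus strand).
Rsad2: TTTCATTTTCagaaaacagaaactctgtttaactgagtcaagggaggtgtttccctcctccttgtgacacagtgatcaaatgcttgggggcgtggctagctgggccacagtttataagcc
Isg15: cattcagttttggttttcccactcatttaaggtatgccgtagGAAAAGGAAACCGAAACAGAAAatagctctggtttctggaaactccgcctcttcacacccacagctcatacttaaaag
Oas1a: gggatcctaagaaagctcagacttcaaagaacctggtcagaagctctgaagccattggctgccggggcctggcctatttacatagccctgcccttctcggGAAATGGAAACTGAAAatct
Igtp: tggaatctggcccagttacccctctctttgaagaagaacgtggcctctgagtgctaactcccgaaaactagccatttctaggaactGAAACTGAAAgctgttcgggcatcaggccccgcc
Isg15 held 3 overlapping matches that began 78, 72 and 66 bases before the start, and Oas1a held 2 that began 20 and 14 bases before it. Rsad2 held 1 match at 120 bases and Igtp 1 at 34 bases. CHR letters, which are short, were in 42.1% of the 19 interferon genes as well.

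Markers of other liver cells were listed as well. Of 18 markers of Kupffer cells and macrophages 16 lay above 0 and 2 were higher by 1 or more (median 0.45), and their summed linear level was 1290 at 72 h and 760 at 0 h. Marco, a scavenger receptor for bacteria, had 7.17 at 72 h against 4.72 at 0 h, and Cd5l, secreted by macrophages, had 8.10 at 72 h against 6.52 at 0 h. The growth factor receptor Csf1r differed by 0.93 and Clec4f by 0.49, while Vsig4 (−0.03) and Adgre1 (0.20) differed little. At 48 h the same list had a median of −0.84. No marker of this list was at 0, and 1 had a level under 1 at 72 h and 2 at 0 h. The part of these cells in the interferon result was not tested.

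Of 12 neutrophil markers 8 lay above 0 and 4 were higher by 1 or more (median 0.57, summed linear level 197 at 72 h and 153 at 0 h). The granule genes Ngp and Ltf differed by 1.71 and 1.28, the gelatinase Mmp9 by 1.44 and the chemokine receptor Cxcr2 by 1.22, whereas myeloperoxidase, Mpo, had 4.07 at 72 h and 4.09 at 0 h. Ngp stood at 4.47, 6.80, 4.85 and 4.73 in the ATRi livers and at 0.34 in the 48 h mean. The list's median against 0 h lay between 0.29 and 0.98 in the 4 livers. T and NK cell markers (2 of 16 above 0, median −0.24) and dendritic cell markers (2 of 10, median −0.22) lay on the other side of 0, with Cd3e at 0.98 at 72 h and 1.35 at 0 h. Of these lists, 10 T and NK markers had levels under 1 at 72 h, against 5 at 0 h. Markers of B and plasma cells (median −0.10, but 0.05 when centred by level), cholangiocytes (−0.10), monocytes (0.03) and sinusoidal endothelial cells (0.14) held no member that differed by 1 or more. Stellate cell and fibroblast markers had a median of 0.37 with 15 of 19 above 0, led by the nerve growth factor receptor Ngfr (0.95) and the collagen genes Col3a1 (0.85) and Col1a1 (0.73).

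Genes of the acute phase response stood higher as well, a list that holds plasma proteins beside receptors and factors that act inside cells. In the acute phase list 25 of 28 genes lay above 0 and 8 were higher by 1 or more (median 0.59). The metallothionein Mt1 had 11.41 at 72 h against 9.28 at 0 h, and 11.63, 11.69, 11.78 and 12.01 in the ATRi livers. The C-reactive protein gene Crp differed by 1.42, the interleukin 1 receptor Il1r1 by 1.57, Stat3, the factor through which interleukin 6 acts, by 1.27, and the fibrinogen chain Fga by 1.06. Complement C3 differed by 1.29. Over the lists of plasma proteins, 2 of 23 complement genes were higher by 1 or more (median 0.22) and 2 of 28 coagulation and fibrinolysis genes (median 0.09). Among chemokine, cytokine and NF-κB genes (median 0.13) 6 of 29 were higher by 1 or more, with the adaptor Tifa at 1.57, the B cell chemokine Cxcl13 at 1.28, the NF-κB inhibitor Tnfaip3 at 1.23 and Ccl9 at 1.18, while Ccl2 stood at −0.64. Genes of endoplasmic reticulum chaperones, which fold secreted proteins, had a median of 0.42 with 16 of 19 above 0 and none at 1 or more. The largest were Hsp90b1 (0.93) and Hyou1 (0.75), and Dnajb9 stood at −0.94.

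**Figure D3:**
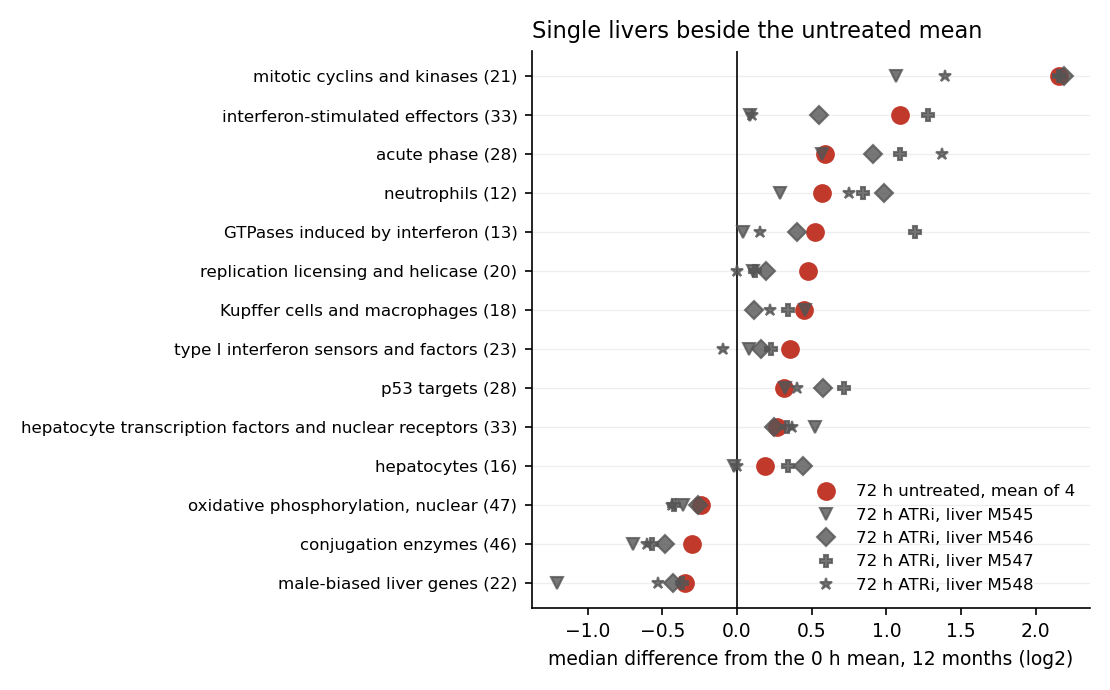
Median log2 difference from the 12-month 0 h mean for 14 lists (number of genes in brackets), in the untreated 72 h mean (large circles) and in each of the 4 single ATRi livers at 72 h (other symbols). The livers spread from 0.09 to 1.28 for interferon-stimulated effectors and from 1.07 to 2.19 for mitotic cyclins and kinases.

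Higher genes were also grouped by their span in the genome, and some of the long ones are in the lists above or below. This grouping was chosen after the values were seen. Of 1331 genes spanning 100 kb or more, 64 were higher by 1 or more (4.81%) and 1 was lower, against 250 higher (2.75%) and 109 lower (1.20%) of 9078 shorter genes. Their median difference was 0.14, against −0.12 for the shorter genes, and 64.5% lay above 0, against 36.6%. Among genes with a mean level of 2 or more the shares higher by 1 or more were 8.65% of 416 long genes and 3.62% of 6023 shorter ones.

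Egfr, the receptor of epidermal growth factor and a main growth signal to hepatocytes, spans 166 kb (chr11:16752203-16918158). It had 6.48 at 72 h against 3.58 at 0 h, a difference of 2.90, and 3.19 at 48 h. Pid1, an inhibitor of insulin signalling in fat and muscle cells, spans 327.9 kb and differed by 2.76 (3.69 at 72 h, 0.93 at 0 h). Zbtb20, a zinc finger repressor of fetal liver genes, spans 766.7 kb and differed by 2.20 (3.22 at 72 h, 1.02 at 0 h). The transcription factor Nfia spans 346.1 kb and differed by 2.19, the neurotrophic factor receptor Gfra1 spans 220.3 kb and differed by 2.36, and adenosine kinase, Adk, spans 396.0 kb and differed by 1.85.

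The 64 long genes were near their 0 h level at 48 h, with a median 48 h minus 0 h difference of 0.02 and 1 gene, the kinesin Kif4, at 1 or more. In the 3-month mice the same genes had a median 72 h difference of 0.73, and all 64 lay above 0, against 39.3% of all entries. The 64 were chosen for being higher at 12 months and all entries were not, so this contrast says nothing about length. All 1331 long genes, however, had a median of 0.02 at 3 months, against −0.11 for the shorter genes. At that age 1.58% of the long genes were higher by 1 or more, against 2.70% of the shorter genes, the reverse of the order at 12 months. Among genes with a mean level of 2 or more this reversal was absent, with 3.61% of long and 3.52% of shorter genes higher at 3 months. In 61 of the 64, all 4 ATRi livers lay above the untreated 72 h mean, against 34.7% of all entries, which again were not chosen by their 12-month difference. Egfr stood at 8.19, 7.50, 8.46 and 8.75 in these livers and Pid1 at 6.78, 5.06, 6.50 and 6.86. Long genes as a whole had median differences from the 0 h mean of 0.71, 0.35, 0.62 and 0.57 in M545, M546, M547 and M548. Over 10 equal bins of genes ordered by span, the median difference was −0.19 in the shortest bin and 0.15 in the longest, and genes lower by 1 or more made up 2.59% of the shortest and 0.0961% of the longest. RNA quality, intron content and the counting of reads over long genes were not tested.

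**Figure D4:**
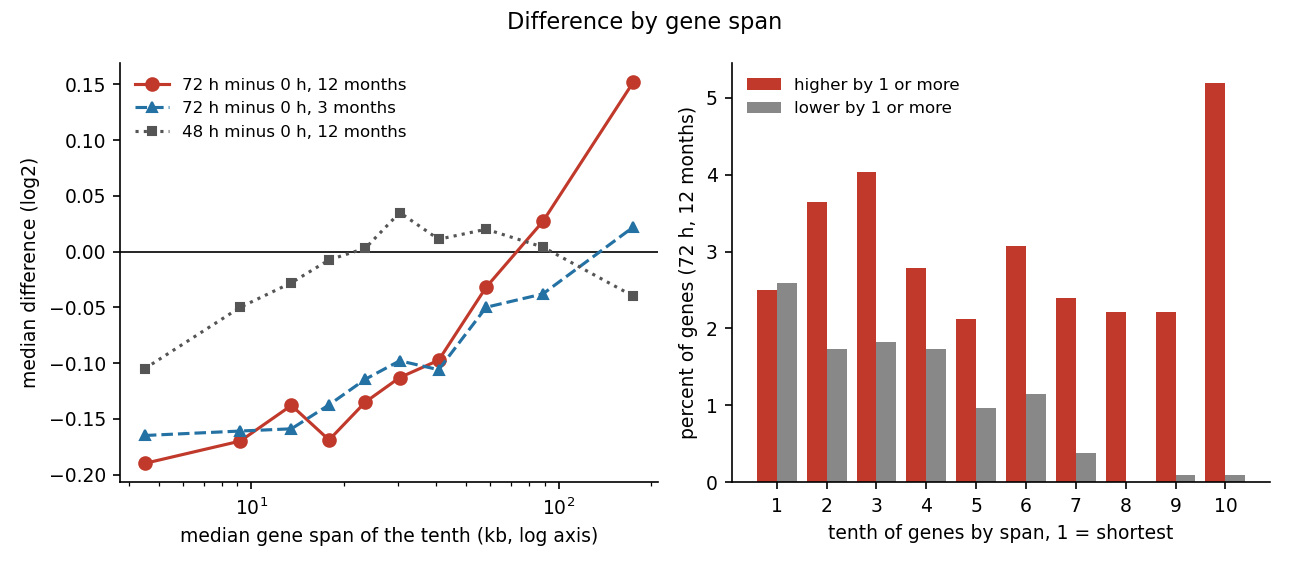
Left, median log2 difference against the median span of each of 10 equal bins of genes (kb, log axis) for 72 h minus 0 h at 12 months, 72 h minus 0 h at 3 months and 48 h minus 0 h at 12 months. Right, percent of the genes of each bin that were higher or lower by 1 or more at 72 h in 12-month mice, where 5.19% of the longest bin were higher and 0.0961% lower.

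Some of the 64 higher long genes are hepatocyte regulators or receptors. Of the higher genes named in this paragraph, Zbtb20, Zhx2, Prlr and Ghr are among the 64, and Rxra, Onecut2, Foxo1 and Foxo3 are not. In the list of hepatocyte transcription factors and nuclear receptors 22 of 33 lay above 0 (median 0.27, and 0.09 without genes spanning 100 kb or more) and 4 were higher by 1 or more, Zbtb20, the retinoid X receptor Rxra (1.36), Onecut2 (1.19) and Zhx2 (1.01). Foxa1, a pioneer factor of liver genes (chr12:57540628-57546916), went the other way, with 3.23 at 72 h against 5.03 at 0 h. It stood at 1.5, 1.62, 2.57 and 2.42 in the ATRi livers, each lower than either mean. Hnf4a, the central hepatocyte factor, had 7.58 at 72 h and 7.53 at 0 h. In the list of insulin, IGF and growth hormone signalling (median 0.14) Foxo1 and Foxo3, factors that insulin keeps out of the nucleus, differed by 1.67 and 1.57, the prolactin receptor Prlr by 1.28 and the growth hormone receptor Ghr by 1.20. Trib3, an inhibitor of Akt, stood at −1.35.

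Of the 112 lower entries, 27 were in any of the 64 lists and 1 spanned 100 kb or more. The lowest difference, −2.99, belonged to an entry that joins the neighbours Elovl3 and Pitx3. Hcn3, a cation channel gene, had 0.26 at 72 h against 3.13 at 0 h, and its span (chr3:89146074-89160196) overlaps that of Pklr (chr3:89136142-89146784), pyruvate kinase of liver, which differed by −1.66. Reads of the pair may not be separable. Pnpla3, a lipase of lipid droplets that lipogenic signals induce, had 1.68 at 72 h against 4.08 at 0 h. The other members of the fatty acid synthesis and lipid droplet list were closer to 0 (median −0.20, 10 of 29 above 0), with the desaturase Scd1 at −0.83, fatty acid synthase Fasn at −0.69 and the elongase Elovl6 at 1.07. At 48 h Scd1 had differed by −4.50 and Fasn by −2.25. Cholesterol synthesis genes had a median of 0.15 at 72 h and −0.91 at 48 h.

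Fatty acid oxidation genes as a list lay close to the 0 h level at 72 h (16 of 33 above 0), against a median of 0.74 at 48 h. The 3 members higher by 1 or more belong to families that PPARα, the fasting-activated receptor, induces in mice. The ω-hydroxylase Cyp4a14 had 6.16 at 72 h against 3.47 at 0 h, and Cyp4a31 differed by 1.85 and the thioesterase Acot3 by 1.03. Cyp4a14 stood at 2.77, 5.57, 1.63 and 5.48 in the ATRi livers, on both sides of the 0 h mean. Close relatives in these families share sequence, so their reads may be split uncertainly. Apoa4, an apolipoprotein of fasting, differed by 1.78 and lipoprotein lipase, Lpl, by 1.17, while the sterol exporter subunit Abcg8 stood at −1.26.

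Some genes of glucose metabolism were among the lower ones, the lowest being the pyruvate kinase gene Pklr (−1.66), named above with Hcn3. G6pc, the catalytic subunit of glucose 6-phosphatase (chr11:101367561-101377903), had 7.64 at 72 h against 9.28 at 0 h, and the ATRi livers stood at 5.46, 8.12, 5.66 and 6.52. The glucose transporter Slc2a2 stood at −1.09 and the glycogen regulator Ppp1r3b at −1.15, and of 29 genes of glucose metabolism 4 were lower by 1 or more and none higher (median 0.02, and −0.09 without genes spanning 100 kb or more). Amino acid catabolism was mixed (median 0.06, 24 of 44 above 0). Tyrosine aminotransferase, Tat, differed by 2.02 (7.68 at 72 h, 5.66 at 0 h), and Csad, which makes taurine, stood at −1.20. Bile acid genes had a median of −0.04, and of 0.05 when differences were centred on their median. Cyp7a1, which catalyses the first and limiting step from cholesterol to bile acids, had 6.52 at 72 h and 6.63 at 0 h, against 2.97 at 48 h, and the organic anion transporter Slco1a1 had 5.29 at 72 h against 6.91 at 0 h.

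Male-biased genes, many of which depend on the pulses of growth hormone in males, had 5 of 22 members lower by 1 or more (median −0.35). Hsd3b5, a steroid dehydrogenase, had 2.22 at 72 h against 4.55 at 0 h, and 0.50, 1.34, 0.72 and 0.96 in the ATRi livers. The major urinary protein gene Mup21 stood at −1.80 and Slco1a1 at −1.62, and Egfr, also on this list, was the exception above 1. The list of conjugation enzymes, which also holds carboxylesterases, had 10 of 46 members above 0 and 4 lower by 1 or more (median −0.30). The 4 were the conjugating sulfotransferase Sult2a8 (−1.35) and the carboxylesterases Ces3b (−1.49), Ces2c (−1.11) and Ces1e (−1.09), which cleave esters and do not conjugate. Cytochrome P450 genes outside lipid pathways had a median of −0.15, with Cyp2a5 (1.44) and the reductase Por (1.1) higher by 1 or more and Cyp2u1 (−1.12) lower. Nuclear genes of oxidative phosphorylation lay below 0 in most cases (6 of 47 above 0, median −0.24), with no member at 1 or more, and ribosome biogenesis genes likewise (3 of 25 above 0, median −0.13). The median of all entries was −0.09. The oxidative phosphorylation genes had a median span of 8.8 kb. All genes spanning 0.4 to 7.0 kb had a median of −0.19 (27.7% above 0), and those of 7.0 to 11.3 kb −0.17 (32.0% above 0). The part of span in this list was not tested.

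Immediate early genes, which respond to growth factors and stress within minutes and also to handling of tissue, had a median of −0.33 with 5 of 25 lower by 1 or more, but a median of 0.21 over those with a mean level of 2 or more. The nuclear receptor Nr4a1 had 3.85 at 72 h against 6.0 at 0 h, Klf10 stood at −1.48, Egr1 at −1.19, Egr2 at −1.11 and the phosphatase Dusp6 at −1.08. Per1, a clock gene that glucocorticoids also induce, was the 1 member higher by 1 or more (1.08). In the circadian list (median 0.23) Usp2 (1.20) and the mitotic inhibitor kinase Wee1 (1.1) joined it, while Cry1 stood at −0.81 and Nr1d1 at −0.11. The hours of the day at which livers were taken are not given in the sources used here.

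The same contrast in 3-month mice gave 274 higher (2.46%) and 225 lower (2.02%) entries. The 4 groups of this comparison share no mice between ages. The 3-month 0 h mean includes the mice labelled wt1, wt2 and wt3, and how far they differ from the numbered mice is unknown. The entries higher at both ages numbered 157, which is 48.3% of those at 12 months and 57.3% of those at 3 months. Those lower at both ages numbered 49, or 43.8% at 12 months and 21.8% at 3 months. The 72 h response at 12 months minus that at 3 months was 1 or more in 119 entries (1.07%) and −1 or less in 72 (0.648%). No test of these age differences was run, since each group is 1 mean.

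Of the 6 division lists 5 had a median above 0 at 3 months too, and the spindle checkpoint list had a median of 0.31 at 12 months and −0.03 at 3 months. The 72 h minus 0 h difference was greater at 12 months than at 3 months in all 12 kinesins and all 16 cytokinesis genes. The median age difference was 0.38 for kinesins, 0.54 for cytokinesis genes and 0.35 for mitotic cyclins and kinases. Plk1 differed from 0 h by 4.09 at 12 months and by 3.13 at 3 months, Pif1 by 3.70 at 12 months and 2.40 at 3 months, and Ccnb2 by 3.91 at 12 months and 4.13 at 3 months. Licensing genes had a median age difference of 0.08.

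Of 33 effectors 32 had the larger response at 12 months, against 54.5% of all entries, with a median age difference of 0.95, and the 3-month median was 0.01. None of the 88 interferon and antigen genes was higher by 1 or more at 3 months. Rsad2 differed from 0 h by 2.30 at 12 months and by −0.53 at 3 months, Zbp1 by 2.81 at 12 months and 0.19 at 3 months, and Cmpk2 by 1.60 at 12 months and −0.57 at 3 months. The 0 h level of Rsad2 was 3.83 at 12 months and 4.81 at 3 months. Marco, by contrast, differed by 2.45 at 12 months and 2.47 at 3 months.

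Single genes with differences on opposite sides of 0 at the 2 ages included Cyp4a14, Pnpla3, Scd1 and Nr4a1. Cyp4a14 differed from 0 h by 2.69 at 12 months and by −1.36 at 3 months, after 0 h levels of 3.47 at 12 months and 8.49 at 3 months, and its 72 h levels were 6.16 at 12 months and 7.14 at 3 months. Pnpla3 differed by −2.40 at 12 months and 0.48 at 3 months, and Scd1 by −0.83 at 12 months and 0.96 at 3 months. Nr4a1 differed by −2.16 at 12 months and 0.54 at 3 months. Mt1 differed by 2.14 at 12 months and 3.92 at 3 months. Oxidative phosphorylation genes had a median of −0.24 at 12 months and 0.08 at 3 months, and 12 of 47 had the higher response at 12 months. Hsd3b5 (−2.33 at 12 months, −1.89 at 3 months), Foxa1 (−1.80 at 12 months, −1.71 at 3 months) and Mup21 (−1.80 at 12 months, −1.65 at 3 months) differed by similar amounts at both ages.

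**Figure D5:**
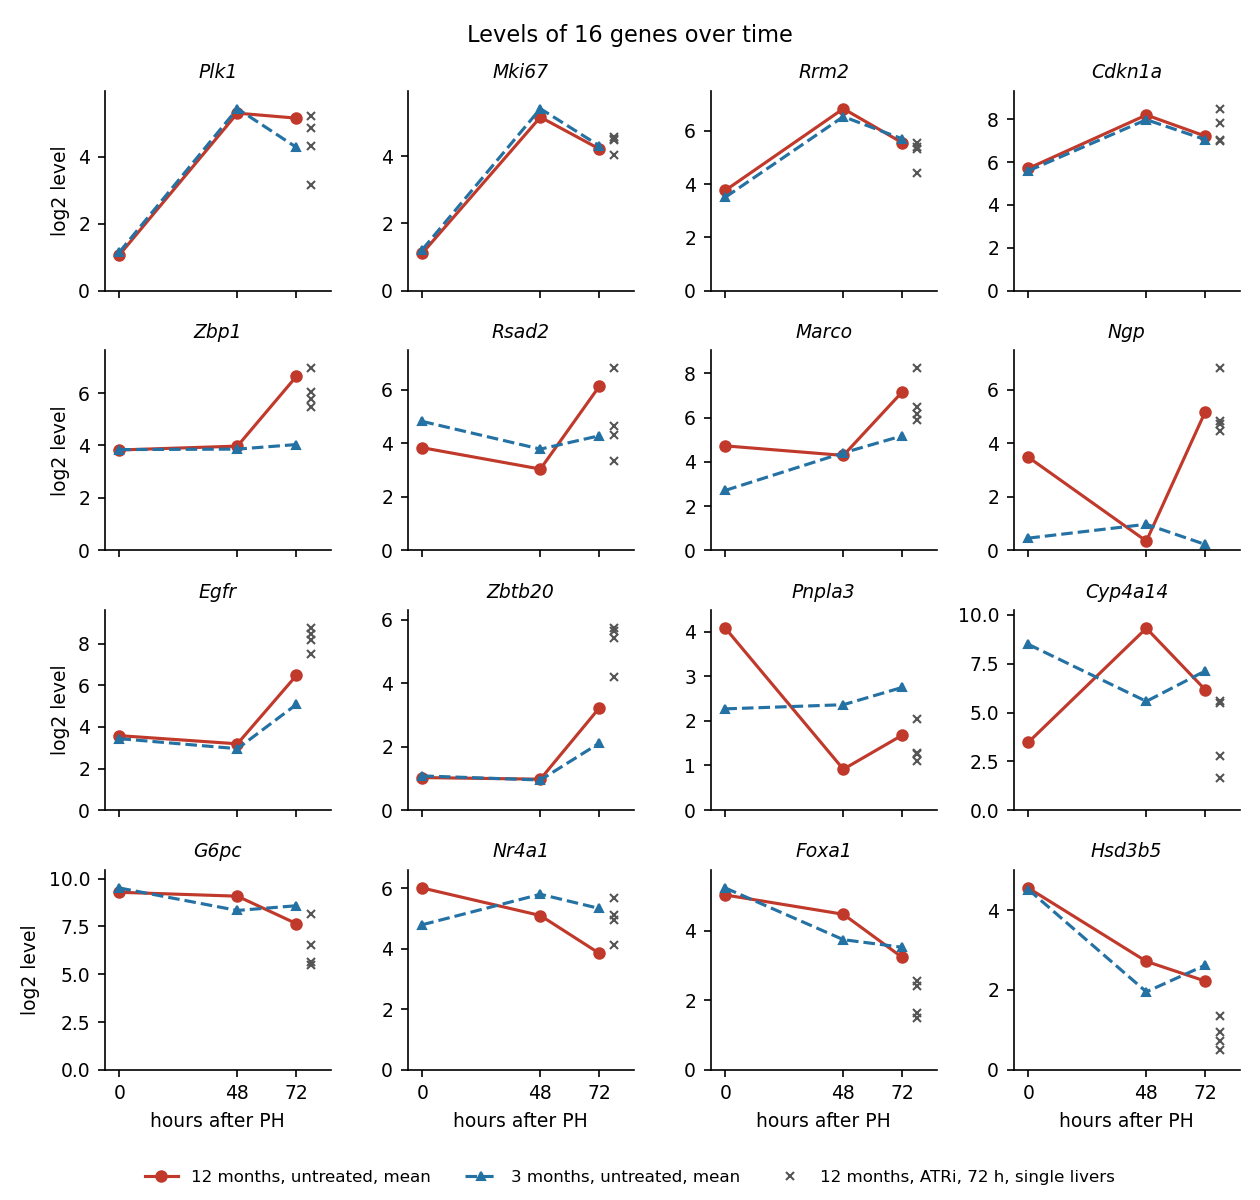
Mean log2 levels (sigma) of 16 genes at 0, 48 and 72 h after PH in untreated 12-month (circles) and 3-month (triangles) mice, with the 4 single 12-month ATRi livers of 72 h drawn as crosses to the right of the 72 h mark. Plk1, Mki67, Rrm2 and Cdkn1a peak at 48 h at 12 months, while Zbp1, Rsad2, Marco, Egfr and Zbtb20 are highest at 72 h at that age.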

How the data were processed

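RNA sequencing of polyadenylated RNA from mouse liver had been summarised by the authors in 12 tables. The values the authors deposited are log2 levels, by the words (average log2 sigma) that stand beside each value in the tables, and sigma is not defined in the sources used here. The build was GRCm38/mm10, per the submitters' processing notes. The aligner, counting, scaling, filters and the way means were made are not given in the sources used here. The depth is unknown, so no interval that needs it is given.

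The members and lists were chosen with earlier results of these data known. The deposited values were used without further scaling (Python 3.11.15, pandas 2.3.3, numpy 2.4.6). Differences were taken between log2 levels, 0 h or the earlier time being subtracted, and entries were counted at a size of 1 or more. No test was run, since each group is 1 mean with no spread and the mice at 72 h are also in the 0 h mean. Lists (64) were described by counts and medians. The authors' deposited mean of the ATRi group lay apart from the mean of its 4 livers by a median of −0.09 (livers minus mean).

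Of the entries, 10409 (93.6%) matched 1 gene of GENCODE mouse release M21 by symbol and chromosome, and each of these lay in or beside the entry's 10 kb bin. A further 507 entries join overlapping genes and entered no list. Whether counting used the strand is not given, so overlapping genes may share reads. The span of a gene is its annotated start to end. Promoters came from RefSeq (GRCm38.p6).

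Genes named are the 20 largest and 20 smallest differences (predicted and clone-named genes passed over), list members of 1 or more in size, the 5 members of a list that were largest in size, the first 3 of each list, the 10 largest and smallest of 72 h minus 48 h and of the age difference, and the largest of each list in the age difference. Others, named for their span or as neighbours, were chosen after their values were seen. The counting was checked on simulated data with shifts set beyond the counted size and little noise. That check covers the counting step alone and not the spread between mice. Alternatives were centring, a filter on low levels, 1 added on the linear scale, other sizes, the range of single livers and leaving out long genes.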

Additional observations from a re-analysis of the deposited data

Results flagged for a closer look

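In 1 of 50 groups of 4 single ATRi livers looked at, a liver stood apart from the others. The 50 were 36 named genes and the 14 lists plotted for single livers. Ngp, a neutrophil granule gene, was at 6.80 in M546, against 4.47, 4.85 and 4.73 in M545, M547 and M548. Chance flags about 1 in 20 such groups. Lists outside the 50 were not looked at in this way. Among them the pericentral list stood at −1.69 in M545, against −0.34, −0.39 and −0.28 in M546, M547 and M548.

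In 3 genes the 72 h difference was 1 or more in size in opposite directions at the 2 ages, and these differences were not tested, since each group is 1 mean. The 72 h minus 0 h difference at 12 months minus that at 3 months was 4.05 for the ω-hydroxylase Cyp4a14, 2.56 for the thioesterase Acot3 and 2.96 for Apol9b. Cyp4a14 had 6.16 at 72 h and 3.47 at 0 h at 12 months, against 7.14 at 72 h and 8.49 at 0 h at 3 months. Acot3 had 3.0 at 72 h and 1.97 at 0 h at 12 months, against 2.71 at 72 h and 4.24 at 0 h at 3 months. Apol9b had 3.96 at 72 h and 2.91 at 0 h at 12 months, against 2.0 at 72 h and 3.91 at 0 h at 3 months. For Cyp4a14 and Acot3 the 0 h levels were further apart between the ages than the 72 h levels were.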

How the results depend on the processing

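No paired analysis was possible because the tables give 1 mean for each group compared, although the labels list the same mice at 72 h and 0 h. Counted at a fold of 1.5 in place of 2, 923 entries were higher and 735 lower at 72 h than at 0 h in 12-month mice, and at a fold of 4, 82 were higher and 6 lower. Of the 325 higher entries 215, and of the 112 lower 85, also differed by more than the range of the 4 single ATRi livers, and with each liver left out of that range in turn these counts were 242 to 269 and 89 to 97. Leaving a liver out can only narrow the range, so these counts could not fall. With 1 added on the linear scale, which shrinks differences of low genes, 66 were lower, and the other counts were 128 lower for 72 h minus 48 h, 137 lower for 48 h minus 0 h, 180 higher for 72 h minus 0 h at 3 months and 43 lower for the age difference. Centring on the median gave 138 lower for 72 h minus 48 h. Leaving out genes spanning 100 kb or more, an alternative chosen after seeing the data, left 261 higher and 111 lower. None of the 36 named genes looked at changed sign under the alternatives run for them. Each differed by 1 or more in size, which these alternatives were too small to turn, so the outcome for the genes was given in advance. None of the 9 list medians of 0.5 or more in size changed sign either. The medians of 13 lists did under at least 1, the largest of them immediate early genes (−0.33, against 0.21 with low genes left out).

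Of the list medians under each alternative, 258 moved by less than the SD between the single livers and 61 by more, and the T and NK cell list held no gene above the filter on low levels. The cause of these shifts was not tested. The lowest levels were 0.05 at 72 h and 0.38 at 0 h, so differences of genes near them are limited by the scale, and the lowest of 10 bins of genes by level had a median difference of −0.21. Means of 4 and 8 mice with no spread limit every comparison.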

Other observations

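Further groups gave values that belong to none of the groups above. Among 69 measured solute carriers (median −0.03, and 0.06 when centred on the median of all entries), 2 were lower by 1 or more and 4 were higher by 1 or more, these being the monocarboxylate transporter Slc16a5 (2.09, with 5.10 at 72 h and 3.02 at 0 h), the zinc and iron importer Slc39a14 (1.69), the arginine transporter Slc7a2 (1.56) and the magnesium transporter Slc41a2 (1.15). Tubb6, a β-tubulin, differed by 2.29 (6.29 at 72 h, 4.0 at 0 h), while the median of its list of 30 cytoskeletal genes was 0.11. The linker histone variant H1fx differed by 2.92 (4.14 at 72 h, 1.22 at 0 h). Among 27 genes of cell death and senescence, the BH3-only genes Bmf and Bik stood at −1.38 and −1.32, and Cdkn1a was higher by 1.51.

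Metal handling genes included 5 of 22 higher by 1 or more, namely Mt1 (2.14), Slc39a14, the haem oxygenase Hmox1 (1.26), the metalloreductase Steap4 (1.20) and the haem carrier Hpx (1.0). Of the pericentral genes, which Wnt signals maintain around the central vein, Cyp2a5 (1.44) and the aryl hydrocarbon receptor Ahr (1.22) were higher by 1 or more, while Glul stood at −0.08 and Cyp2e1 at −0.01. In the single ATRi livers the pericentral list had a median of −1.69 in M545 and of −0.34, −0.39 and −0.28 in M546, M547 and M548 against the 0 h mean, compared with 0.11 in the untreated 72 h mean, so the low end rests on M545 alone.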
